A study of Mus musculus with 4 samples.

Results

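The genes described are 9 genes through which nerve-derived peptides and prostaglandins are made or sensed: Vipr1, Vipr2, Calcrl, Ramp1, Ramp3, Ret, Ptgs2, Ptger2 and Ptger4. They were chosen by name, with earlier results of these data known, and sought among the deposited array values. All 9 were found, each on 1 row, among 19504 named genes. The values come from 4 Affymetrix arrays of mouse ILC3s, the group 3 innate lymphoid cells that make IL-22 in barrier tissues, sorted as lineage-negative, CD90-high and CD45-low. The genotypes are circZbtb20-/- (without a circular RNA from the Zbtb20 gene) with its circZbtb20+/+ wild type, and Nr4a1-/- (without an orphan nuclear receptor) with its Nr4a1+/+ wild type. Each genotype has 1 array. The labels used here name no treatment, tissue, age or number of mice, so it is not known how many animals stand behind an array.

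Vasoactive intestinal peptide (VIP), released by enteric neurons among other cells, acts through the receptors encoded by Vipr1 and Vipr2. Calcrl encodes a receptor that needs a partner protein to bind its ligand. With the product of Ramp1 it is a receptor for calcitonin gene-related peptide (CGRP), and with that of Ramp3 it is a receptor for adrenomedullin. Ret encodes the receptor tyrosine kinase of the GDNF family of neurotrophic factors, which bind it together with GFRA coreceptors, and in the gut it is known for linking enteric glia to ILC3s and their IL-22. Ptgs2 encodes cyclooxygenase-2, the inducible enzyme that starts prostaglandin synthesis, and Ptger2 and Ptger4 encode receptors for prostaglandin E2 (PGE2). The receptors for VIP, CGRP, adrenomedullin and PGE2 named so far raise cyclic AMP in the cell.

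Values are on a log2 scale, and array medians lay between 4.34 and 4.51. A gene is called higher or lower in a knockout when it differed by at least 1 on the log2 scale, a 2-fold difference of the deposited values, in the same direction from each of both wild types. The higher value of each pair also had to reach the median of its array. The knockouts share these wild types, so their comparisons are not independent. No value has a replicate error, and the calls rest on size and not on a test. The relation of these values to RNA abundance is not known, since the table runs up to a ceiling of 19.93.

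Nr4a1 itself was at 11.63 in the Nr4a1 knockout and 15.98 in the circZbtb20 knockout, against 18.11 in the Nr4a1 wild type and the ceiling in the circZbtb20 wild type. It was lowest on the array of its knockout, but 11.63 is also the 95th percentile of that array, so the value by itself does not bear out the label. Which part of the gene was deleted is not stated here. Markers of the sorted cells differed between the arrays. Of 12 ILC3 markers 10 were measured, and their summed log2 value was 71.86 in the Nr4a1 knockout and 158.76 in the circZbtb20 knockout, against 145.14 in the circZbtb20 wild type and 146.31 in the Nr4a1 wild type. Of these 10 markers 8 were lower and none was higher in the Nr4a1 knockout, where Ncr1, which encodes NKp46 and is named after its values were seen, was below the array median. Il22 was at the ceiling on that array and in both wild types, where true levels above it cannot be ordered. In the circZbtb20 knockout 5 markers were higher and 3 lower. Without Il17a, at 15.79 in that knockout and no more than 5.10 in the wild types, the sums of the other 9 were 67.52 in the Nr4a1 knockout and 142.97 in the circZbtb20 knockout, against 140.04 in the circZbtb20 wild type and 141.71 in the Nr4a1 wild type. The 12 measured T cell and thymocyte markers, of 13, were all higher in the Nr4a1 knockout, with a summed log2 value of 193.57 against 72.45 and 61.92 in the Nr4a1 and circZbtb20 wild types. The array labelled as Nr4a1-/- ILC3s thus carried the signal of T-lineage genes and lower values of most ILC3 markers, though not of Il22 and with Il7r still at 13.40, and Nr4a1 knockout below names it by its label. The 7 measured pancreatic acinar markers, of 8, were lower in both knockouts, with sums of 28.32 in the circZbtb20 knockout and 27.41 in the Nr4a1 knockout, against 78.32 in the circZbtb20 wild type and 57.92 in the Nr4a1 wild type.

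**Figure D1:**
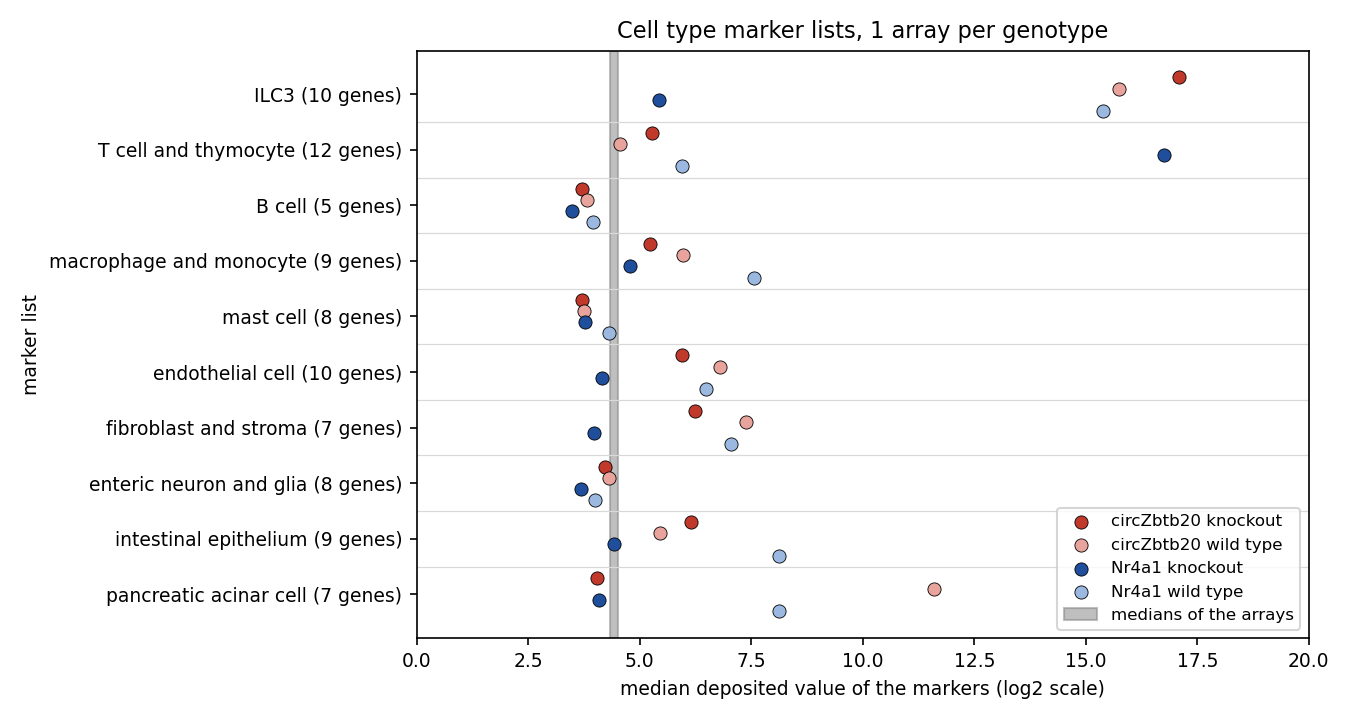
Median deposited value (log2 scale) of each cell type marker list, with 1 point per array and the number of measured genes in brackets. The grey band spans the medians of the arrays. In the Nr4a1 knockout the ILC3 list is at 5.42 and the T cell list at 16.75, while the other 3 arrays have ILC3 medians between 15.39 and 17.09.

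The windows around the annotated start sites of 8 of the 9 genes were found among RefSeq sequences of build GRCm38.p6, each with 250 bases before the start and 50 after it. Shown are Ptgs2, Ramp3, Ptger2 and Ramp1, which differed by the rule of size in the Nr4a1 knockout. Capitals mark the core of the cyclic AMP response element, CGTCA on either strand, a sequence bound by CREB-family factors.
Ptgs2 (chr1:150099781-150100080, plus strand): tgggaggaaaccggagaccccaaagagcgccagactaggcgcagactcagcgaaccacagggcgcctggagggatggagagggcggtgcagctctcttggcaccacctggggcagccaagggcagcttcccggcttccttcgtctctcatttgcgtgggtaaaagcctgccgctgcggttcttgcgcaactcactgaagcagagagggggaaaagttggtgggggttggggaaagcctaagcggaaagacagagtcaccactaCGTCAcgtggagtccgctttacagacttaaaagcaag
Ramp3 (chr11:6658283-6658582, plus strand): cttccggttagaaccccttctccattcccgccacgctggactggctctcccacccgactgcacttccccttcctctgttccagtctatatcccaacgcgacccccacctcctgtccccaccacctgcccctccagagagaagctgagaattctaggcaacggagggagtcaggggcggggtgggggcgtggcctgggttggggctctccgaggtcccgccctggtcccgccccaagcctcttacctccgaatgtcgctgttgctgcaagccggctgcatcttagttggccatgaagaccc
Ptger2 (chr14:44987861-44988160, plus strand): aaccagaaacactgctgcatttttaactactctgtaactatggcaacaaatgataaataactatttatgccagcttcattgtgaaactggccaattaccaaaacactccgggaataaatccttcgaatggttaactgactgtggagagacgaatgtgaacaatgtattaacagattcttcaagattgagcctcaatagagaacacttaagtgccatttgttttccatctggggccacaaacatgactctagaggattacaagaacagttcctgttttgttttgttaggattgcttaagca
Ramp1 (chr1:91179572-91179871, plus strand): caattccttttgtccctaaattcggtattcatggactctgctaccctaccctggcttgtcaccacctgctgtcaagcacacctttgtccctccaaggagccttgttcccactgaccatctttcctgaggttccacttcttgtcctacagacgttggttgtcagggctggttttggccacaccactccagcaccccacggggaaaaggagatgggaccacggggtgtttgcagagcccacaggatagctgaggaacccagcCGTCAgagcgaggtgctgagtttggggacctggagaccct

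The core CGTCA was found in 3 of the 8 windows, those of Ptgs2, Ramp1 and Vipr1, and in 20.8% of 32851 windows of the same length. In Ptgs2 it began at base 14 after the annotated start, in Ramp1 at base 11, and in Vipr1 it began 13 bases before the annotated start. Whether these annotated starts are where transcription begins was not checked. The full element TGACGTCA, which contains the core, was in none of the 8 and in 1.79% of all windows. AAAGGTCA, the NBRE bound by NR4A receptors, was in none of the 8 and in 1.51% of all windows. The AP-1 letters TGANTCA were in none of the 8 and in 7.81% of all windows. Both strands were searched.

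In the circZbtb20 knockout Vipr2, Ramp3 and Ptger2 were higher and Ptgs2 and Ptger4 lower than in both wild types. The Nr4a1 knockout had Ramp1 higher and Ramp3, Ret, Ptgs2 and Ptger2 lower. Of the 9 genes 8 passed the filter on low values in the circZbtb20 comparison and 5 were called, where the rule called 36.7% of the 10685 genes past the filter, 22.3% as higher and 14.4% as lower. For Nr4a1 all 9 passed and 5 were called, where the background was 44.0% of 10730 genes, 28.4% as higher and 15.7% as lower. The genes were chosen with earlier results of these data known, and these counts were not tested against those shares. The values of each gene carry the description. In such bulk samples fewer cells of a type and less RNA per cell cannot be told apart.

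**Figure D2:**
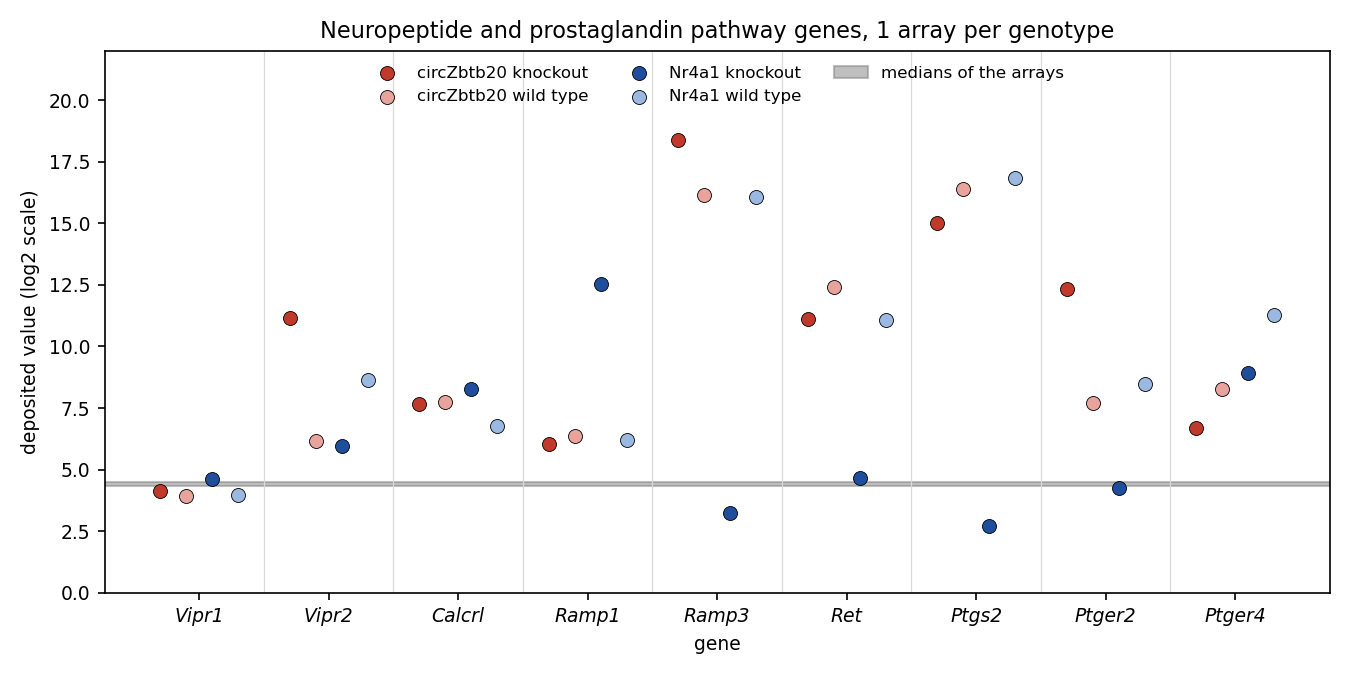
Deposited value (log2 scale) of the 9 genes in each of the 4 arrays, 1 point per array. The grey band spans the array medians. Ramp3, Ptgs2 and Ptger2 lie under the band in the Nr4a1 knockout, at 3.22, 2.73 and 4.25, and above it in the other 3 arrays.

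The VIP receptors differed in pattern. Vipr1 was at 4.14 in the circZbtb20 knockout and 4.64 in the Nr4a1 knockout, against 3.91 in the circZbtb20 wild type and 3.96 in the Nr4a1 wild type. It reached the array median only in the Nr4a1 knockout and was not called in any comparison. Vipr2 was at 11.16 in the circZbtb20 knockout and 5.95 in the Nr4a1 knockout, against 6.17 in the circZbtb20 wild type and 8.65 in the Nr4a1 wild type. The circZbtb20 knockout was thus the highest array for Vipr2, by 4.99 over its paired wild type and by 2.51 over the other. The Nr4a1 knockout differed by -2.70 from its paired wild type but by only -0.22 from the circZbtb20 wild type, so Vipr2 was not called there. Vip, which encodes their shared ligand, stayed between 3.57 and 4.33, under the median of every array.

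Calcrl, the core of the CGRP and adrenomedullin receptors, varied less than its partners. It was at 7.65 in the circZbtb20 knockout and 8.29 in the Nr4a1 knockout, against 7.73 in the circZbtb20 wild type and 6.79 in the Nr4a1 wild type. All 4 arrays were above their medians, and neither knockout was 2-fold from both wild types. The 4 values of Calcrl spanned 1.5 on that scale.

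Ramp1, which with Calcrl makes the CGRP receptor, was at 12.55 in the Nr4a1 knockout, against 6.19 and 6.35 in the Nr4a1 and circZbtb20 wild types. The differences of 6.36 and 6.20 placed it at rank 66 and 89 from the highest of the 19504 genes. The circZbtb20 knockout, at 6.02, differed from them by only -0.33 and -0.17, the paired one first. Ramp1 was thus high in 1 array, the one with high T cell markers, whose summed level was 193.57 there, and the part of those cells in the result was not tested.

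Ramp3, the adrenomedullin receptor partner, was at 18.39 in the circZbtb20 knockout and 3.22 in the Nr4a1 knockout, against 16.14 in the circZbtb20 wild type and 16.08 in the Nr4a1 wild type. The wild types differed by only -0.06, the Nr4a1 wild type minus the circZbtb20 wild type. The circZbtb20 knockout was above both, by 2.25 and 2.31. The Nr4a1 knockout was under both and under its array median, with differences of -12.86 from its own wild type and -12.92 from the other, the fifth and the seventh lowest of all genes. On that array 8 of the 10 measured ILC3 markers were lower and none higher, and their part in the Ramp3 value was not tested. Ramp2, the other adrenomedullin partner, was at 2.81 in the Nr4a1 knockout, against 5.32 and 5.23 in the Nr4a1 and circZbtb20 wild types, and at 4.91 in the circZbtb20 knockout.

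Ret was at 11.11 in the circZbtb20 knockout and 4.65 in the Nr4a1 knockout, against 12.41 in the circZbtb20 wild type and 11.09 in the Nr4a1 wild type. The circZbtb20 knockout differed by -1.30 from its paired wild type and by 0.02 from the other, and the wild types themselves differed by -1.32, the Nr4a1 wild type minus the circZbtb20 wild type, so Ret was not called in that comparison. The Nr4a1 knockout was far under both wild types, with differences of -6.44 and -7.76. Its value of 4.65 was near the median of its array.

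Ptgs2 was at 14.99 in the circZbtb20 knockout and 2.73 in the Nr4a1 knockout, against 16.40 in the circZbtb20 wild type and 16.85 in the Nr4a1 wild type. The circZbtb20 knockout differed by -1.41 and -1.86, with the wild types 0.45 apart. On the Nr4a1 knockout array the difference of -14.12 from the paired wild type was the lowest of all 19504 genes, and that of -13.67 from the other was the third lowest. Ptgs2 is an immediate-early gene, and its value in the Nr4a1 knockout stood under the array median. Of the 10 measured ILC3 markers 8 were lower and none higher there, Kit by -12.88 and -12.59. Their part in the Ptgs2 value was not tested.

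The PGE2 receptors went apart in the circZbtb20 knockout. Ptger2 was at 12.35 in the circZbtb20 knockout and 4.25 in the Nr4a1 knockout, against 7.70 in the circZbtb20 wild type and 8.48 in the Nr4a1 wild type. The circZbtb20 knockout was its highest array, by 4.65 and 3.87, and the Nr4a1 knockout its lowest, with differences of -4.23 and -3.45. In the Nr4a1 knockout 8 of the 10 measured ILC3 markers were lower and none higher. Their part in the Ptger2 value was not tested. Ptger4 was at 6.70 in the circZbtb20 knockout and 8.93 in the Nr4a1 knockout, against 8.26 in the circZbtb20 wild type and 11.28 in the Nr4a1 wild type. The circZbtb20 knockout was the lowest array for Ptger4, with differences of -1.56 and -4.58. Macrophage markers, 9 measured of 10, summed to 47.28 there, against 57.27 in the circZbtb20 wild type and 70.74 in the Nr4a1 wild type, with 4 lower and none higher, and their part in the Ptger4 value was not tested. The Nr4a1 knockout lay between the wild types, so Ptger4 was not called there. On that array the macrophage markers summed to 46.27, with 5 lower and none higher.

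**Figure D3:**
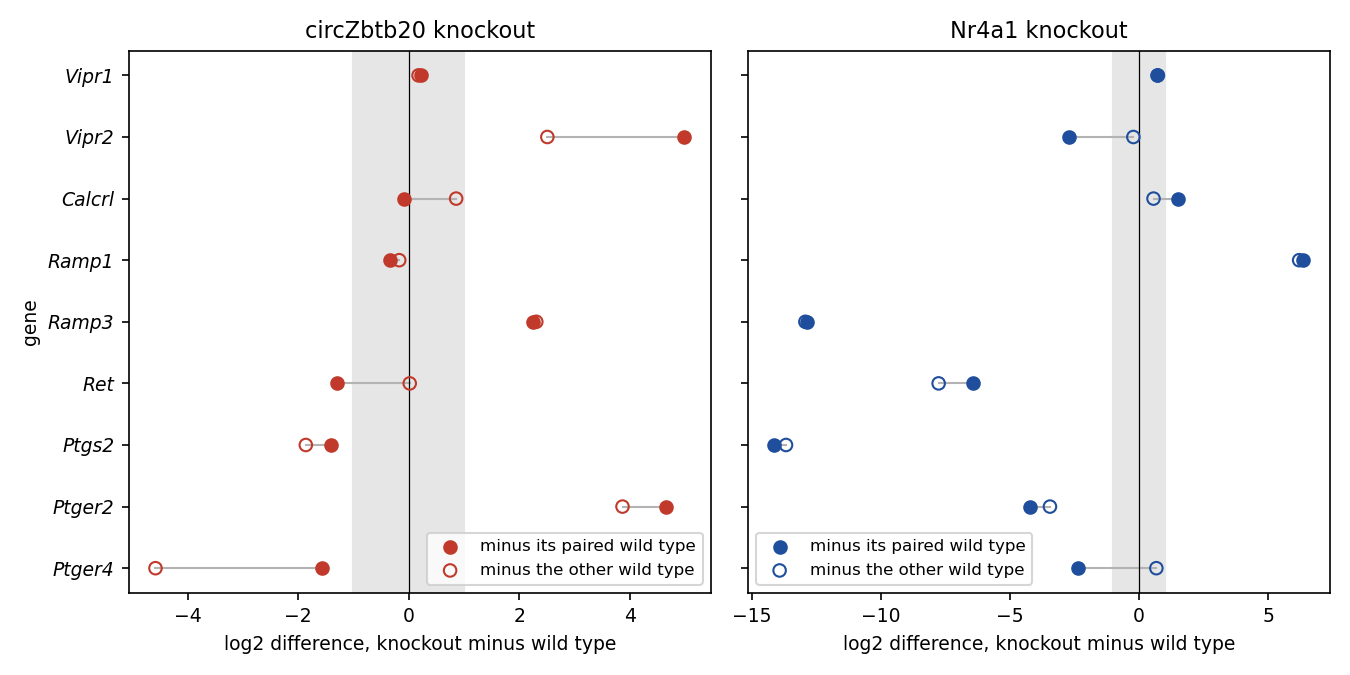
Log2 difference of each gene, knockout minus its paired wild type (filled points) and minus the other wild type (open points), with a line joining the 2 values. The shaded band covers differences under 1 in size, and the 2 panels have different axes. Ramp3 and Ptger2 lie right of the band in the circZbtb20 knockout and left of it in the Nr4a1 knockout.

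Between the wild types 3 of the 9 genes differed by the rule of size, of 8 past the filter, where 15.2% of genes did, 8.48% as higher and 6.77% as lower in the Nr4a1 wild type. Vipr2 and Ptger4 were higher in the Nr4a1 wild type, by 2.48 and 3.02, and Ret was lower, by -1.32. The same array had higher summed log2 values of macrophage markers, 70.74 in the Nr4a1 wild type against 57.27 in the circZbtb20 wild type over the 9 measured of 10. Intestinal epithelial markers summed to 71.31 in the Nr4a1 wild type, against 52.59 in the circZbtb20 wild type, over all 9 of the list. Of these lists 6 and 7 markers were higher and none lower, and their part in the Vipr2 and Ptger4 values was not tested. The macrophage markers summed to 47.28 in the circZbtb20 knockout, the highest array for Vipr2, and to 46.27 in the Nr4a1 knockout, its lowest. Of the 12 T cell markers 6 were higher and 1 lower in the Nr4a1 wild type. Beside the lower Ret, 4 of 10 endothelial markers were lower and none higher there, Lyve1 by -1.83, as were 3 of 7 stromal and 7 of 7 acinar markers, and their part in the Ret value was not tested. For Vipr2, Ret and Ptger4 a difference from a single wild type is thus not separable from the difference between wild types, while Ramp1, Ramp3, Ptgs2 and Ptger2 had wild types within 0.78 of each other.

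Over all 9 genes the median absolute difference was 1.41 in the circZbtb20 knockout against its paired wild type and 1.86 against the other, where all genes had 0.52 and 0.53. For the Nr4a1 knockout it was 4.23 and 3.45, where all genes had 0.54 against either wild type. Between the wild types it was 0.78, where all genes had 0.32. These values include genes under the filter on low values. The signed median of the 9 genes was -2.70 against the paired wild type of Nr4a1 but -0.22 against the other. Both medians are the value of Vipr2, whose wild types differed.

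A limma fit over all genes with the wild types pooled was also made. Its error rests on the difference between those 2 arrays and assumes that the knockouts vary likewise. The shares of all genes below count all 19504, also those under the filter on low values. All 9 genes passed that filter in the Nr4a1 comparison and 8 in the circZbtb20 comparison, so these shares are not a like background. With it limma called 0 of the 9 genes in the circZbtb20 knockout at an adjusted p under 0.05, and 0.0% of all genes. At an unadjusted p under 0.05 it called 4 of the 9 there, where 24.0% of all genes passed. For the Nr4a1 knockout limma called 5 of the 9, where 11.2% of all genes passed, with adjusted p = 0.0117 for Ptgs2 and Ramp3, 0.0159 for Ramp1, 0.025 for Ret and 0.0321 for Ptger2. The same 5 were the only ones of the 9 at an unadjusted p under 0.05, which 27.4% of all genes passed.

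Among 37 neuropeptide ligands and other neuropeptide receptors 36 were measured, and 23 of these stayed under the median on every array. In the circZbtb20 knockout 2 were higher and 2 lower, of 11 past the filter, a share close to the 36.7% of all genes. Adm, which encodes adrenomedullin, was at 11.78 in the circZbtb20 knockout and 3.43 in the Nr4a1 knockout, against 6.92 in the circZbtb20 wild type and 6.49 in the Nr4a1 wild type. It was thus higher in the circZbtb20 knockout, by 4.86 and 5.29, and lower in the Nr4a1 knockout, by -3.06 and -3.49, the same directions as Ramp3. Nmur1, a neuromedin U receptor known on ILC2s, was at 4.36 in the circZbtb20 knockout and 3.34 in the Nr4a1 knockout, against 6.61 and 8.40 in the circZbtb20 and Nr4a1 wild types. Penk, which encodes proenkephalin, differed by -2.17 and -3.71 in the circZbtb20 knockout, and Npy1r, a neuropeptide Y receptor, by 1.08 and 2.34. Against both wild types, 1 gene of the list was higher and 4 were lower in the Nr4a1 knockout, of 9 past the filter, where 44.0% of all genes were called in total. The higher one was Crcp, named after its values were seen, by 1.09 and 1.67. The lower ones were Nmur1, Adm, Ramp2 and Sst, the somatostatin gene, at 4.11 in the Nr4a1 knockout against 6.52 and 8.26 in the Nr4a1 and circZbtb20 wild types. The list had medians of -0.04 and -0.11 in the circZbtb20 knockout and of -0.18 and -0.16 in the Nr4a1 knockout, each close to the median of all genes, between 0.00 and 0.04.

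Of 9 RET ligands and coreceptors 8 were measured, and 2 passed the filter in each knockout comparison. The ligands Gdnf, Nrtn, Artn and Pspn did not pass the filter on low values in either knockout comparison, so no call was possible. Gfra2, a coreceptor for neurturin, was at 4.73 in the circZbtb20 knockout and 5.06 in the Nr4a1 knockout, against 8.16 in the circZbtb20 wild type and 6.44 in the Nr4a1 wild type, lower in both. Gfra1, the GDNF coreceptor, was at 5.40 in the circZbtb20 knockout, against 7.04 and 7.13 in the circZbtb20 and Nr4a1 wild types, and at 6.83 in the Nr4a1 knockout. Gfra1 and Gfra2, the 2 past the filter, were thus lower in the circZbtb20 knockout, where Ret had no call. The coreceptor genes Gfra3 and Gfral did not pass the filter. Of all genes 36.7% were called in that knockout, 14.4% as lower. In the Nr4a1 knockout 1 of 2 was called, where 44.0% of all genes were. The wild types themselves differed by -1.72 for Gfra2, the Nr4a1 wild type minus the circZbtb20 wild type. The list had medians of -0.26 and -0.15 in the circZbtb20 knockout and of -0.40 against either wild type in the Nr4a1 knockout.

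Of 21 further prostaglandin enzymes, transporters and prostanoid receptors 20 were measured, and 11 passed the filter for the circZbtb20 knockout, 3 of them higher there and 2 lower, where 36.7% of all genes were called. Pla2g4a, the cytosolic phospholipase that frees arachidonic acid, was at 7.35 in the circZbtb20 knockout and 3.45 in the Nr4a1 knockout, against 3.72 in the circZbtb20 wild type and 4.06 in the Nr4a1 wild type. Ptges, the inducible PGE2 synthase, was at 7.51 in the circZbtb20 knockout and 3.62 in the Nr4a1 knockout, against 6.09 in the circZbtb20 wild type and 5.96 in the Nr4a1 wild type. Before and after the cyclooxygenase step these enzymes were higher in the circZbtb20 knockout, while Ptgs2 itself was lower. Ptges3, at 5.85 in that knockout against 7.82 and 8.99 in the circZbtb20 and Nr4a1 wild types, and Ptges2, at 3.25 against 4.98 and 4.73, were lower. The third higher gene, named after its values were seen, was Ptgdr, a prostaglandin D2 receptor, by 1.77 and 1.18. On the Nr4a1 knockout array 3 of the list were higher and 1, Ptges, was lower, of 10 past the filter, where 44.0% of all genes were called. The higher ones were Ptger1, a further PGE2 receptor, by 1.83 and 2.52, Abcc4, an exporter of prostaglandins, by 1.48 and 1.59, and Tbxa2r, the thromboxane receptor, by 1.46 and 1.40. The medians of the list were 0.07 and 0.10 in the circZbtb20 knockout and 0.02 and 0.08 in the Nr4a1 knockout.

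Of 30 genes of cyclic AMP signalling, which lies downstream of the VIP, CGRP, adrenomedullin and PGE2 receptors above, 26 were measured, and of 21 past the filter for the circZbtb20 knockout 4 were higher and 3 lower, a share close to the 36.7% of all genes. Pde4b, a phosphodiesterase that degrades cyclic AMP, was at 17.71 in the circZbtb20 knockout and 8.78 in the Nr4a1 knockout, against 15.52 in the circZbtb20 wild type and 16.16 in the Nr4a1 wild type. Prkar1a, a regulatory subunit of protein kinase A, was lower in the circZbtb20 knockout by -2.89 and -2.42, and Prkacb, a catalytic subunit, was higher by 2.45 and 1.47. The transcription factor gene Atf1 was higher by 1.77 against either wild type. The remaining calls there, named after their values were seen, were Grk5, at 1.42 and 1.77, Gnas, which encodes the stimulatory G protein subunit of these receptors, at -1.41 and -1.42, and Pde7a, at -1.46 and -1.93. There were 7 higher and 8 lower genes in the Nr4a1 knockout of 23 past the filter, where 44.0% of all genes were called. Of these Atf1 was higher by 1.97 against either wild type and Prkacb by 1.32 and 2.30. Pde7a was lower, by -2.04 and -1.57, so Atf1, Prkacb and Pde7a were called alike in both knockouts. Pde4b and Grk5, the latter at -2.08 and -2.43, were lower here and higher in the circZbtb20 knockout. Sik1, a kinase induced by cyclic AMP that restrains CREB coactivators, was at 7.16 in the Nr4a1 knockout, against 16.59 and 14.55 in the Nr4a1 and circZbtb20 wild types. Pde8a differed by -4.91 and -5.08 and Arrb1, a beta-arrestin that desensitises receptors, by -4.85 and -4.55. Among the higher ones, named after their values were seen, were the adenylyl cyclase genes Adcy6, by 3.75 and 4.22, and Adcy3, by 2.32 and 2.31, the receptor kinase gene Grk6, by 2.04 and 2.72, and Prkaca, a catalytic subunit of protein kinase A, by 2.28 and 1.89. The medians of the list were -0.06 and -0.26 in the circZbtb20 knockout and 0.02 and -0.24 in the Nr4a1 knockout.

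**Figure D4:**
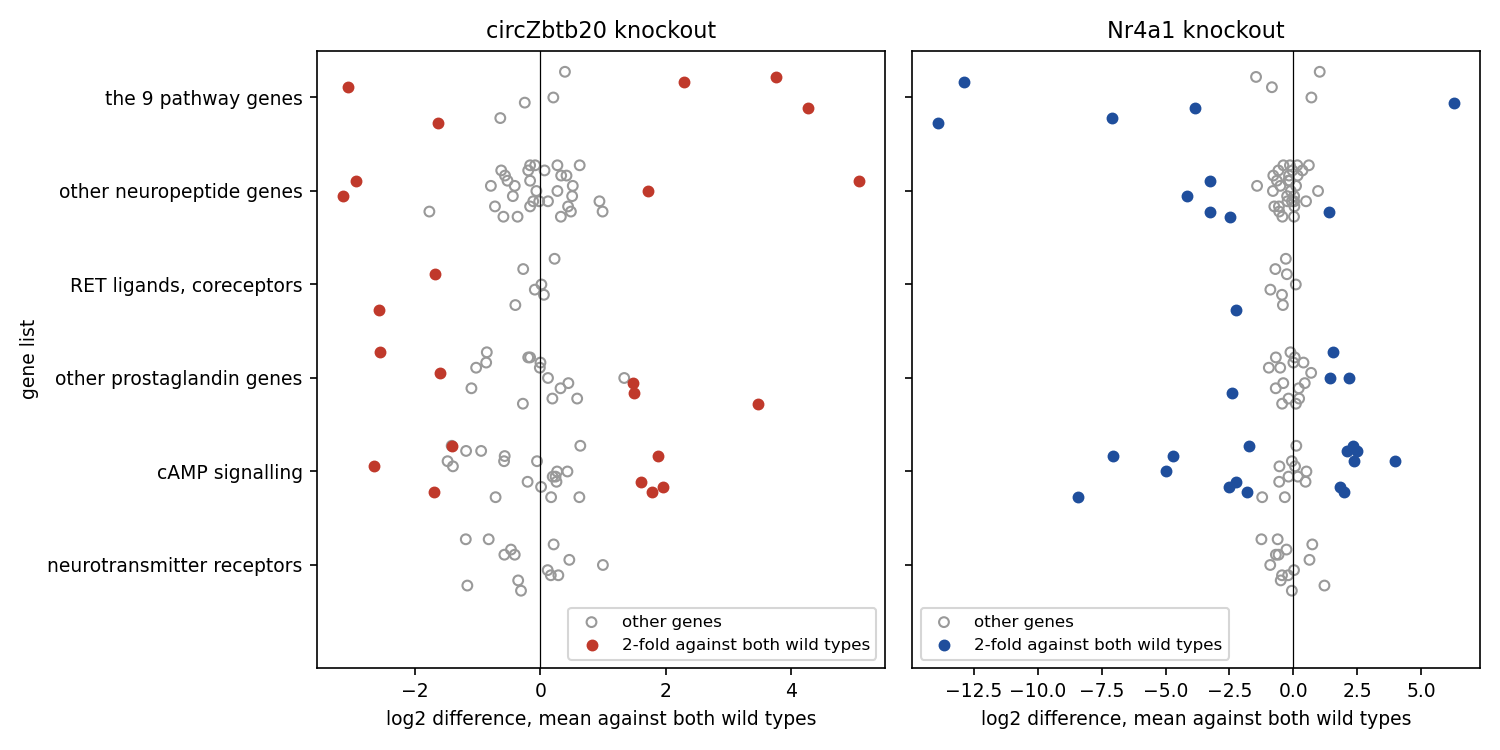
Log2 difference of every measured gene of each list, as the mean of the differences from both wild types, with filled points for genes 2-fold from both in the same direction and past the filter. The 2 panels have different axes. The filled points of the 9 genes run from Ptger4 to Ptger2 in the circZbtb20 knockout and from Ptgs2 to Ramp1 in the Nr4a1 knockout.

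For the 7 of the 9 genes whose values spanned at least 2, the genes with the most similar pattern were sought among 11570 genes. Likeness was the root mean square difference of the 4 log2 values after each gene was centred on its mean, and with 4 arrays it only describes these values. Nearest to Ramp3 were Dgat1, at 0.268, the ILC3 marker Kit, at 0.404, and Gcnt2, at 0.622. Kit was at 19.67 in the circZbtb20 knockout and 5.48 in the Nr4a1 knockout, against 18.07 in the circZbtb20 wild type and 18.36 in the Nr4a1 wild type. Nearest to Ret were Lyve1, a marker of lymphatic endothelium, at 0.183, Npnt at 0.194 and the chemokine gene Ccl21a at 0.377. Lyve1 belongs to the endothelial list, whose 10 measured markers summed to 47.25 in the Nr4a1 knockout, against 67.08 and 75.92 in the Nr4a1 and circZbtb20 wild types. In that knockout 5 of the 10 were lower and none higher, and their part in the Ret value was not tested.

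Nearest to Ramp1 were Rag2, a gene of antigen receptor rearrangement, at 0.106, Fbxo5 at 0.220 and Arhgdib at 0.235. Rag2 was at 10.50 in the Nr4a1 knockout, against 4.04 and 4.06 in the Nr4a1 and circZbtb20 wild types. Ptgs2 had no close neighbour beyond Lilrb4a, at 0.423, with Gem at 0.831 and Pxdc1 at 0.914. Nearest to Ptger2 were Dhrs3, at 0.125, Gimap3, at 0.247, and Chd7, at 0.294. Vipr2 was nearest to Batf, an AP-1 family factor, at 0.334, then to Hsp90aa1, a chaperone gene, at 0.360 and to Cd244a at 0.492. Ptger4 was nearest to Ypel2, at 0.411, Fam117b, at 0.554, and H2-DMb1, at 0.569.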

How the data were processed

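Total RNA of sorted ILC3s was hybridised to 1 array per genotype, 4 in all, after Trizol extraction per the labels' protocols. Per the submitters' processing notes, Affymetrix Power Tools and RMA gave the deposited log2 values. RMA as usually run includes background correction and quantile normalization, which hide changes of total RNA. The deposited arrays still differed, with 75th percentiles between 6.58 and 6.94. Quantile normalization of the deposited values lowered the higher calls over all genes from 2380 to 2078 in the circZbtb20 knockout. In the Nr4a1 knockout they fell from 3042 to 2538. Lower calls rose from 1543 to 1778 and from 1684 to 1828. The shares of all genes called higher or lower thus depend on the scaling. No version, setting or genome build is given in the sources used here. The values range from 2.13 to 19.93. The top value, treated as a ceiling, is held by 3 to 25 rows per array, and by none of the 9 genes.

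Rows were named through GEO's platform annotation. Of 22205 rows 19571 had 1 symbol, 0 several and 2634 none, and the brightest row of each gene was kept. Every one of the 9 genes has 1 row. Differences were computed in Python 3.11.15 with pandas 2.3.3, and limma 3.58.1 in R 4.3.3 gave the alternatives. Calls need an absolute difference of 1 on the log2 scale against both wild types. The calling rule and limma were tested on simulated data. Samples were grouped by title. With 1 array per genotype the number of arrays limits the precision, and p-values exist only for limma with the wild types pooled.

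The 9 genes and all lists were chosen with earlier results of these data known. Named were all 9 genes, up to 4 called genes per pathway list and knockout by mean difference, the highest or lowest gene of marker lists, and the 3 genes nearest in pattern to each of the 9 that spanned at least 2. Alternatives were the wild type used, quantile, cyclic loess and median normalization, the filter, the size, the handling of rows and limma. Genes of the lists without a row were not analysed here.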

Additional observations from a re-analysis of the deposited data

Results flagged for a closer look

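Ramp3 and Ptger2 were called in opposite directions in the knockouts. Ramp3 differed by 2.25 and 2.31 in the circZbtb20 knockout, from its paired and the other wild type, and by -12.86 and -12.92 in the Nr4a1 knockout. Ptger2 differed by 4.65 and 3.87 in the circZbtb20 knockout and by -4.23 and -3.45 in the Nr4a1 knockout. The difference between the knockouts was not tested. The ILC3 markers Il23r, Il7r, Kit and Ncr1 had the same calls, while the other measured ILC3 markers did not. Of the pathway lists Adm, Ptges, Pde4b and Grk5 also had them. Of genes past the filter, 36.7% were called in the circZbtb20 knockout and 44.0% in the Nr4a1 knockout. The share of all genes with such opposite calls is not given here. With 1 array per genotype no array could be examined as an outlier of its group.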

How the results depend on the processing

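The 5 calls in the circZbtb20 knockout, 3 higher and 2 lower, were the same genes under quantile normalization, cyclic loess, median centring, no filter, a filter at the 75th percentile, the mean of the rows, the mean of both wild types and the other wild type alone. With its paired wild type alone Ret joined them, which made 6. At a size of 2 on the log2 scale 3 remained, Vipr2, Ramp3 and Ptger2, and limma with the wild types pooled called 0. In the Nr4a1 knockout the same 5 genes were called under the 3 normalizations, both filters, the larger size, the mean of the rows and the other wild type alone. The paired wild type alone gave 8 calls, with Calcrl, Vipr2 and Ptger4 added, and the mean of both gave 7. There limma also called 5. Some of these settings could not remove a call from either knockout. Each of the 9 genes has 1 row, so the mean of the rows changes nothing. No filter, or a single wild type, can add calls but not take any away. Between the wild types 3 genes were called, and 4 under quantile normalization. Of 225 alternative values of single genes 0 reversed a called difference, and 44 moved by over 0.45, the median absolute difference between the wild types over genes past the filter. The 225 include the values by the mean of the rows, which could not move. Median centring shifted the median difference of all genes to between 0.13 and 0.17, and the calls of the 9 genes stood at that shift. Low values such as those of Vipr1 depend on background. No paired analysis was possible because each group holds 1 sample.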

Other observations

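Receptors for other neurotransmitters gave little signal on these arrays. Of 20 such genes 14 were measured, and 8 of these stayed under the median on every array. In each knockout comparison only 3 passed the filter on low values, and none of them was called. Of all genes past the filter 36.7% were called in the circZbtb20 knockout and 44.0% in the Nr4a1 knockout. Their medians were -0.02 and -0.14 in the circZbtb20 knockout and -0.26 and -0.16 in the Nr4a1 knockout, against the paired and the other wild type. Markers of enteric neurons and glia, the cells that release VIP and GDNF family ligands in the gut, were measured for 8 of 10 genes. They summed to 35.36 in the circZbtb20 knockout and 30.35 in the Nr4a1 knockout, against 36.27 in the circZbtb20 wild type and 33.30 in the Nr4a1 wild type. Uchl1, named after its values were seen, was higher in the circZbtb20 knockout, at 6.59 against 4.27 and 3.58 in the circZbtb20 and Nr4a1 wild types. Sox10, likewise, was lower in the Nr4a1 knockout, at 3.72 against 5.63 and 6.13 in the Nr4a1 and circZbtb20 wild types.

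Most mast cell and B cell markers were near or under the array medians. Of 8 mast cell markers 5 were under the median everywhere, with sums of 30.71 in the circZbtb20 knockout and 30.39 in the Nr4a1 knockout, against 30.79 in the circZbtb20 wild type and 32.20 in the Nr4a1 wild type. In each knockout comparison only 2 of 6 B cell markers passed the filter, and neither was called. Of the 6, 5 were measured and 3 were under the median everywhere. Their sums were 19.40 in the circZbtb20 knockout and 18.74 in the Nr4a1 knockout, against 19.73 in the circZbtb20 wild type and 22.78 in the Nr4a1 wild type, where Cd79a, named after its values were seen, was at 6.99, higher by 2.34 than in the circZbtb20 wild type. Stromal markers, 7 measured of 8, summed to 48.16 in the circZbtb20 knockout and 29.31 in the Nr4a1 knockout, against 56.11 in the circZbtb20 wild type and 53.13 in the Nr4a1 wild type. In the Nr4a1 knockout all 7 were lower, among them Dcn, at 3.06 there against 13.00 and 12.13 in the Nr4a1 and circZbtb20 wild types.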
